A study of Mus musculus with 16 samples.

Results

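The genes described here carry GABA signalling: 26 genes for receptor subunits, for the synthesis, packaging, uptake and breakdown of the transmitter, and for the scaffold of the inhibitory synapse, out of 32285 genes in the count tables. They were taken by symbol and by no measured value, though earlier results of these data were known when they were chosen. Single-nucleus RNA-seq (snRNA-seq) of mouse hippocampus was measured in 16 libraries of male mice, in 4 groups of 4. Wild-type (WT) C57BL/6 mice (C57BL/6J in the study's methods) aged 2 months and 23 days, and Ifnar1-/- mice (KO, without the type I interferon receptor chain Ifnar1 in any cell) aged 3 months and 3 days, were injected with vehicle or with DMXAA, an agonist of mouse STING that turns on interferon genes. According to the study's methods, nuclei were sorted by DAPI from hippocampi of the right hemisphere and reads from unspliced transcripts were counted. All KO mice were older than all WT mice, so genotype and age cannot be told apart. The labels do not say that each library was a mouse of its own, and p-values then measure the spread between libraries. The comparisons ask where each gene was expressed, whether DMXAA changed it in mice with and without the receptor, and how the genotypes differed.

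GABA is the main inhibitory transmitter of the brain. Gad1 and Gad2 make it from glutamate, Slc32a1 (the vesicular transporter VGAT) loads it into vesicles, the transporters Slc6a11 (GAT3) and Slc6a13 (GAT2) take it up, and Abat (GABA transaminase) breaks it down. GABA-A receptors are chloride channels of 5 subunits, in which alpha and beta subunits pair with gamma, delta or other subunits, whereas GABA-B receptors (Gabbr1 with Gabbr2) act through G proteins. Gephyrin (Gphn) and neuroligin 2 (Nlgn2) hold receptors at inhibitory synapses. In the hippocampus the delta subunit (Gabrd) is known for tonic inhibition of dentate granule cells and Gabra5 for extrasynaptic receptors of pyramidal cells.

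After filtering, 112521 nuclei remained, 5296 to 9404 per library with 33543386 to 52637708 UMIs (unique molecular identifiers, 1 per captured RNA molecule). Ifnar1 was at 16.9, 18.9, 18.5 and 18.0 CPM (UMIs of the gene per 1000000 UMIs of the library) in the WT vehicle libraries and at 19.2, 18.3, 13.6 and 18.3 in the WT DMXAA libraries. In the KO it was at 11.7, 10.9, 11.6 and 12.2 CPM with vehicle and at 12.6, 11.0, 12.1 and 12.1 with DMXAA, so reads at the gene were fewer but not absent. WT DMXAA replicate 3 stood apart from the other 7 WT libraries. Its Malat1, a nuclear RNA, was at 23779 CPM (53215 to 91123 in the other WT, 12699 to 27820 in the KO), its microglia held 754 CPM of the marker genes of excitatory neurons (212 to 414 and 296 to 656) and 14.98% of its nuclei lay in an unnamed cluster of few UMIs (5.43% to 10.4% and 4.64% to 7.41%). Every log2 difference of DMXAA by edgeR named below that turned sign or moved by over 1.5 times without it is also given without it. Cell barcodes found in 2 or more libraries made up 3225 of the nuclei.

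Nuclei were clustered without the 26 genes, and clusters were called excitatory neuron-like (ENs, 47239 nuclei), interneuron-like (INs, 5797), astrocyte-like (14351), oligodendrocyte-like (18363), oligodendrocyte precursor-like (OPCs, 3190), microglia-like (4883) or fibroblast-like (2775) from other markers; 11949 nuclei stayed unnamed. ENs included dentate granule-like (19172), CA1-like (6986), CA3-like (2368) and deep-layer cortex-like cells (5149), and INs included Lhx6 (3711) and Adarb2 (1991) subclasses. The label of INs held for genes that did not choose them: Gad1, Gad2 and Slc32a1 were highest in INs. Levels below are CPM, the UMIs of a gene summed over a class in a library per 1000000 UMIs of that class, as mean ± SD over 16 libraries unless stated. CPM is not divided by gene length, so levels are compared between classes for 1 gene and never between genes. The classes came from clustering these same nuclei, so an order of classes is given as a description with no test.

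The start regions of 6 genes are shown because most of their transcripts or their highest level lay in 1 class or cluster (Gad2, Slc6a11, Gabrr2 and Gabra6), because the gene was high in INs and also present in OPCs and dentate granule cells (Gad1), or because their window held the letters of a MEF2 site, MEF2C being the factor named in the title of the series (Gabrb2). Each is a stretch of 120 bases from RefSeq (GRCm38.p6, the build family mm10 that the labels name), 5′ to 3′ on the gene's strand. They lie at chr2:70561922-70562041 on the plus strand (Gad1), chr2:22622085-22622204 plus (Gad2), chr6:114131121-114131240 plus (Slc6a11), chr4:33062879-33062998 plus (Gabrr2), chr11:42321073-42321192 minus (Gabra6) and chr11:42420320-42420439 plus (Gabrb2), all before a RefSeq transcript start. The stretches of Gad1 and Gabrb2 lie inside the annotated genes, which begin further upstream, at 70553072 and 42419757. Capitals mark CG dinucleotides in the first 5. In Gabrb2 they mark a match to a loose form of the MEF2 site, CTA with any 4 bases before TAG.
Gad1: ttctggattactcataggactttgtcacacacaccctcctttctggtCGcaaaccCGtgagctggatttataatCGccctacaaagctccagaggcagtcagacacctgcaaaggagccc
Gad2: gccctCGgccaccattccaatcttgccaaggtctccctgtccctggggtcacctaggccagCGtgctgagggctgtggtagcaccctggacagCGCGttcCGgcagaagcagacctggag
Slc6a11: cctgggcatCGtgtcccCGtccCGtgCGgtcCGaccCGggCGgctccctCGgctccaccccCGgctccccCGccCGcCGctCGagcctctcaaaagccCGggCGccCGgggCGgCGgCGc
Gabrr2: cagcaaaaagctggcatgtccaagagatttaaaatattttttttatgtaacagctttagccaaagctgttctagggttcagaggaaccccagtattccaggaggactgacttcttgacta
Gabra6: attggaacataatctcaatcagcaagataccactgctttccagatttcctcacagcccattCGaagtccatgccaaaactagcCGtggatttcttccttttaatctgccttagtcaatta
Gabrb2: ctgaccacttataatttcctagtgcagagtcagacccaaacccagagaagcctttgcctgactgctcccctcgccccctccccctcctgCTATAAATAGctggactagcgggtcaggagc

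The stretch of Slc6a11 held 19 CG dinucleotides, those of Gad2, Gad1 and Gabra6 held 5, 3 and 2, and that of Gabrr2 held 0. These stretches lay at unlike distances from the start. Those of Slc6a11 and Gabra6 ran from -120 to -1, of Gad1 from -207 to -88, of Gad2 from -242 to -123 and of Gabrr2 from -233 to -114. In the equal windows of 300 bases described next, CG counts were 32 for Slc6a11, 21 for Gad1, 14 for Gad2 and 2 each for Gabra6 and Gabrr2. The median over all windows was 7. RefSeq windows from 250 bases before to 50 after a start were at hand for 24 of the 26 genes, in 30 windows, and not for Gabrd and Abat. The core of the interferon-stimulated response element, GAAA with any 2 bases before a further GAAA, searched on both strands as were the other motifs, was in 0 of the 30 windows and in 3.44% of all 32851. TTCNNNGAA, the letters of a STAT site, was in windows of 3 of the genes (Gabra6, Gabrb1 and Gabrg1) and in 8.30% of all windows. A loose form of the MEF2 site, CTA with any 4 bases before TAG, was in 2 of the 30 windows and in 3.69% of all windows. The matches were CTATAAATAG of Gabrb2 at position -31, in window 1 of its 3, and CTAGCTCTAG of Slc32a1 at position -250. Positions are counted from the RefSeq start of that window. With the 4 inner bases left free, the pattern also takes in letters that are no MEF2 site. The match of Gabrb2 overlapped its TATAAA at -30, a motif also found for Gad1 and Gabra3 and in 13.6% of all windows. The E-box letters CANNTG were in 16 of the 24 genes and in 72.3% of all windows. A match of letters is a description and not a bound site.

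Several of the genes lie side by side in the genome (mm10). Gabrg1, Gabra2, Gabra4 and Gabrb1 follow each other on chromosome 5 between 70751047 and 72149037, Gabrg3 and Gabra5 on chromosome 7 between 56716465 and 57510059, Gabra6 and Gabrb2 on chromosome 11 between 42306437 and 42629028, and Gabrr2 and Gabrr1 on chromosome 4 between 33062999 and 33163588. Gabra4 and Gabrb1 overlap at their starts on opposite strands. The 4 genes on chromosome 5 did not share 1 class, since Gabrg1 and Gabrb1 were highest in astrocytes while Gabra2 and Gabra4 were highest in dentate granule cells.

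The genes for making and loading GABA were highest in INs. Gad1 was at 298 ± 44.8 CPM in INs, Gad2 at 339 ± 36.4 and Slc32a1 at 71.2 ± 24.3. Gad2 in INs was 47.0 times its level in the next class. Gad1 was also present at 68.0 ± 9.05 CPM in OPCs and at 41.0 ± 3.38 in dentate granule cells, against 1.87 ± 0.944 in CA1 and 1.68 ± 0.969 in CA3, so that the level in dentate granule cells was 22.0 times that in CA1. Gad2 was low in both, at 4.82 ± 4.16 CPM in OPCs (64 UMIs in all) and 1.89 ± 0.694 in dentate granule cells (297 UMIs), below the 7.21 ± 3.94 of microglia. The ratio of Gad1 to Gad2 UMIs was 0.885 in INs, 1.32 in microglia, 1.34 in oligodendrocytes and 1.53 in CA1. In OPCs it was 14.5 (4.54 to 59 over libraries) and in dentate granule cells 21.1 (12.6 to 58), above the ratio of INs in every library. At least 1 Gad1 UMI was found in 23.4% of OPCs (median 4030 UMIs per nucleus) and 25.1% of dentate granule cells (median 7718), against 1.86% of microglia (median 1863) and 1.89% of CA1 cells (median 9939). Thinned to 1500 UMIs per nucleus, these shares were 9.60%, 5.77%, 1.22% and 0.346%. The thinned shares with Gad2 were 0.501% and 0.290% in OPCs and dentate granule cells and 0.991% in microglia, and are read as background.

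Uptake and breakdown had other places. Slc6a11 was highest in astrocytes, at 336 ± 109 CPM, 13.6 times its level in OPCs, and 56.1% of astrocytes held a UMI against 1.003% of microglia (35.9% and 0.729% after thinning, with medians of 3140 and 1863 UMIs). Slc6a13 was nearly confined to fibroblasts at 452 ± 134 CPM, 877 times its level in OPCs. The fibroblast class was compared because this gene was high in it, so the level there is a description. At least 1 UMI of it was in 52.6% of fibroblasts (median 3002 UMIs) and 0.098% of astrocytes (40.1% and 0.038% after thinning), and the 441 mural cells pooled held 46.6 CPM. Abat was at 183 ± 44.1 CPM in astrocytes, 175 ± 33.3 in INs and 28.9 ± 5.86 in ENs, and astrocytes were above INs in 13 of 16 libraries.

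Alpha subunits divided the excitatory neurons. Gabra2 was at 662 ± 52.3 CPM in dentate granule cells, 540 ± 33.7 in CA1, 512 ± 48.6 in CA3 and 97.0 ± 21.8 in deep-layer cortex, and at 447 ± 74.8 in astrocytes. The ranges of mean ± SD of CA1 and CA3 overlapped. Gabra4 was at 252 ± 16.3 CPM in dentate granule cells, above its 91.4 ± 13.8 in CA1. Gabra5 had the reverse order, with 201 ± 21.3 CPM in CA3, 183 ± 14.5 in CA1 and 135 ± 9.24 in dentate granule cells, and 35.1 ± 6.80 in INs. Gabra3 was at 84.4 ± 10.4 CPM in Lhx6 INs, 83.4 ± 11.2 in deep-layer cortex and 82.9 ± 11.6 in OPCs, with overlapping ranges of mean ± SD. In dentate granule cells it was at 1.74 ± 0.736.

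Among beta subunits, Gabrb1 was at 4592 ± 346 CPM in astrocytes against 1357 ± 189 in ENs and 603 ± 72.3 in INs, and Gabrb2 was at 575 ± 61.0 CPM in INs, 400 ± 34.0 in ENs and 158 ± 25.1 in CA3. Gabrg1 was in astrocytes at 97.1 ± 18.3 CPM and in OPCs at 38.8 ± 13.1, with 5.07 ± 1.33 in ENs. Gabrg3 was in Lhx6 INs at 2916 ± 477 CPM, in Adarb2 INs at 1466 ± 289 and in dentate granule cells at 169 ± 33.6. Gabrd, the tonic subunit, was at 34.0 ± 11.9 CPM in Lhx6 INs and 33.5 ± 9.35 in dentate granule cells, with overlapping ranges of mean ± SD. In dentate granule cells Gabrd was 6.45 times its level in CA1 and 34.8 times that in CA3. For GABA-B receptors, Gabbr2 was at 821 ± 249 CPM in CA3, 775 ± 202 in dentate granule cells and 633 ± 160 in ENs as a whole, with 110 ± 34.2 in astrocytes, whereas Gabbr1 was at 210 ± 22.8 CPM in astrocytes and 187 ± 16.8 in oligodendrocytes against 109 ± 13.02 in ENs. The scaffold gene Gphn was at 1553 ± 120 CPM in astrocytes, 1130 ± 93.4 in oligodendrocytes and 638 ± 44.8 in ENs. Nlgn2 was at 77.2 ± 15.5 CPM in OPCs and 60.5 ± 12.1 in fibroblasts, against 30.8 ± 5.65 in ENs.

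Rare subunits had narrow places or hardly any counts. Gabrr2, a rho subunit best known from the retina, was at 50.01 ± 18.8 CPM in oligodendrocytes, 16.9 times its level in astrocytes, with a UMI in 9.88% of oligodendrocytes against 0.307% of microglia (6.97% and 0.212% after thinning, with medians of 2263 and 1863 UMIs). Gabra6, the alpha subunit known from cerebellar granule cells, had 872 UMIs in all, and 804 of them (92.2%) lay in 1 unnamed cluster of 644 nuclei, whose leading genes were Gabra6, Fat2 and Cnpy1. That cluster held 5 to 204 nuclei per library, the 204 being 3.37% of the nuclei of KO DMXAA replicate 4. Gabre had 194 UMIs, 33.5% of them in choroid plexus-like cells (7.99 CPM pooled), and was at 4.67 ± 3.82 CPM in fibroblasts. Gabrr1, Gabrr3, Gabrq and Gabrp had 202, 87, 71 and 26 UMIs in all nuclei together.

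**Figure D1:**
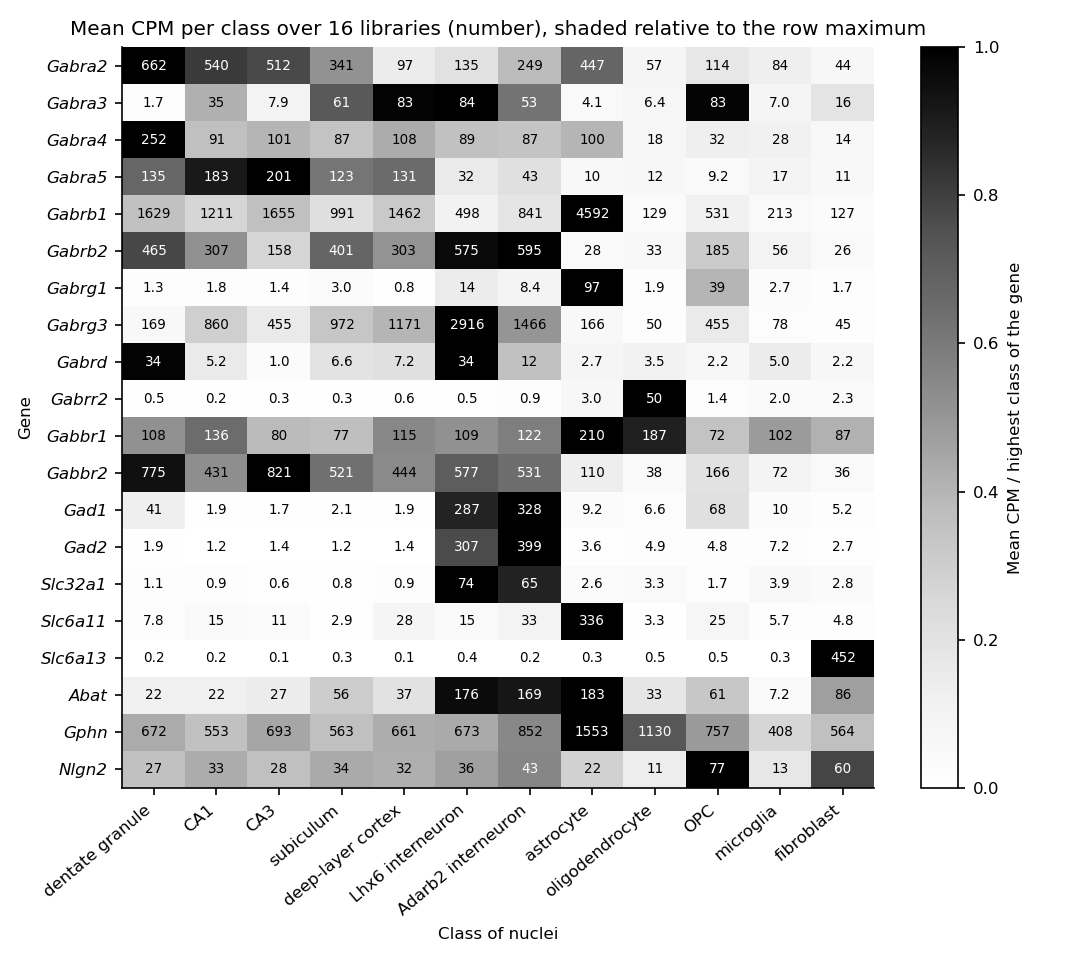
Mean CPM over 16 libraries of the 20 genes with at least 1000 UMIs (rows, grouped by role) in 12 classes, regions and subclasses (columns), each row shaded by its own highest value. Gad2 and Slc32a1 are dark only for INs and their subclasses, Slc6a11 for astrocytes, Slc6a13 for fibroblasts and Gabrr2 for oligodendrocytes.

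**Figure D2:**
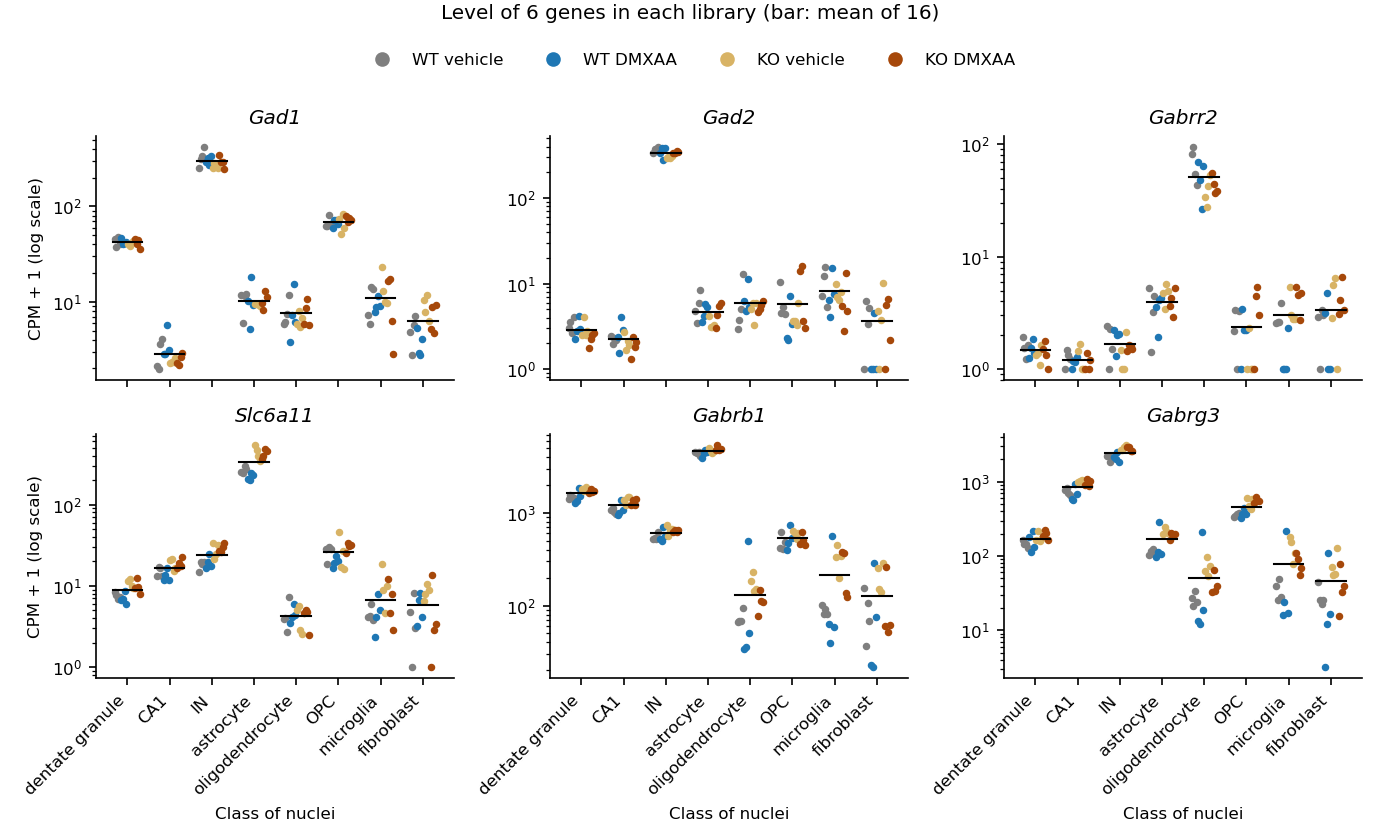
Level of 6 genes in each of the 16 libraries by class, in CPM plus 1 on a log axis, 1 point per library, with the mean as a line. Gad1 is raised in OPCs and dentate granule cells where Gad2 is not, and Gabrr2 points of oligodendrocytes lie above those of the other classes.

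The order of classes can be counted over libraries for the genes with enough UMIs. In all 16 libraries 10 of 20 genes were higher in INs than in ENs, against a background of 18.8% of all genes, and 4 of 20 were lower (background 15.4%). The lower ones were Gabra2, Gabra4, Gabra5 and Gabrb1. Between astrocytes and ENs 8 of 20 were higher in astrocytes (30.2%) and 7 of 20 lower (22.6%). The 8 were Gabrb1, Gabrg1, Gphn, Gabbr1, Slc6a11 and Abat, and also Gad2 and Slc32a1, which were at only 3.61 ± 1.47 and 2.604 ± 1.27 CPM in astrocytes. Gad2 there was below its level in microglia. Dentate granule cells were above CA1 for 8 of 18 (21.5%), among them Gad1, Gabrd, Gabra2 and Gabra4, and below it for 5 of 18 (13.5%), namely Gabra3, Gabra5, Gabrg3, Gabbr1 and Slc6a11. Lhx6 INs were above Adarb2 INs for 3 of 18, Gabrd, Gabrg3 and Gabra3 (background 6.97%), and below for 6 of 18, Gad2, Gabra2, Gabrb1, Slc6a11, Gphn and Gabbr1 (background 5.82%). Free RNA in the suspension was not removed from these counts.

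DMXAA did not bring any of the 26 genes past the test. UMIs were summed per library and class and fitted over 4 groups with edgeR's quasi-likelihood test, across all genes that passed a filter on low counts, and a gene was called at a Benjamini-Hochberg adjusted p under 0.05 with a log2 fold change beyond 0.1 in size. Of the 26, 23 were tested in at least 1 of 13 units (7 classes, 5 regions or subclasses and all nuclei) and Gabrp, Gabrq and Gabrr3 in none. Over the 216 tests in WT mice 0 were called and 5 had an unadjusted p under 0.05, and DESeq2 called 0. Of the 216 tests in KO mice 0 were called and 8 had an unadjusted p under 0.05, and DESeq2 called 0. The interaction, which is the DMXAA effect in WT less that in KO, gave 0 calls and 13 unadjusted p under 0.05. DESeq2 gave 2 calls for it, described below for all nuclei, where it called 0.703% of all genes.

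All genes were also rarely called for DMXAA. In WT mice the background was 0.118% in ENs, 0% in INs, 0.232% in astrocytes, 0% in oligodendrocytes, 0.149% in OPCs, 1.63% in microglia, 0% in fibroblasts, 0.149% in dentate granule cells, 0.0462% in CA1, 0% in CA3 and both IN subclasses, and 0.485% in all nuclei. In KO mice it was 0% in each of the 13 units. For the interaction it was 0.0281% in ENs, 0.0531% in OPCs, 0.143% in microglia, 0.0204% in dentate granule cells, 0.00771% in CA1, 0.0644% in all nuclei and 0% in the other 7 units. A count of 0 members is near these shares.

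The intervals show what size of DMXAA effect these libraries leave. In ENs the log2 fold changes of the 20 genes tested ran from -0.43 to 0.42 in WT mice, with a median of 0.05 beside 0.01 over all genes, and from -0.37 to 0.48 in KO mice, with a median of -0.08 beside -0.00252. The 95% interval lay within 0.5 of 0 for 11 of 20 genes in WT ENs and for 11 of 18 in WT INs, and within 1 of 0 for 16 of 20 and 18 of 18. In glia the intervals were wider: in WT microglia 2 of 10, in WT oligodendrocytes 5 of 18 and in WT astrocytes 12 of 19 lay within 1 of 0. Without WT DMXAA replicate 3 the WT values in ENs ran from -0.28 to 0.57 with a median of -0.076. The interval then lay within 0.5 of 0 for 15 of 20 genes in WT ENs and 16 of 18 in WT INs, and within 1 of 0 for 2 of 10 in microglia, 8 of 18 in oligodendrocytes and 14 of 19 in astrocytes.

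**Figure D3:**
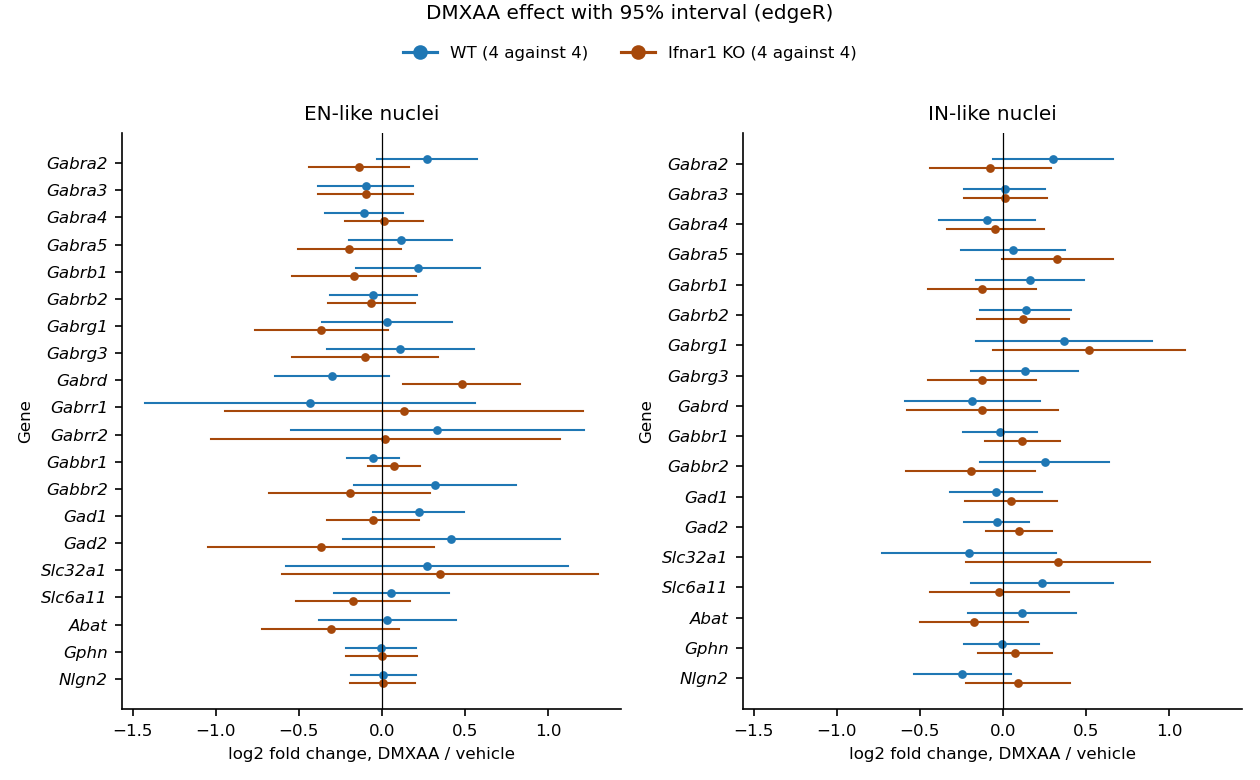
Log2 fold change of DMXAA against vehicle (points) with its 95% interval (bars) for each gene tested in ENs and in INs, in WT and in KO mice. The interval crosses 0 for every gene but Gabrd in KO ENs, and no gene passed the adjusted test.

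Gabrd had the lowest p of the interaction in ENs. In ENs it was at 26.1, 22.1, 31.4 and 23.02 CPM in WT vehicle, 29.7, 17.5, 11.4 and 21.99 in WT DMXAA, 13.2, 11.8, 13 and 12.7 in KO vehicle and 22.3, 15.7, 20.4 and 17.5 in KO DMXAA. Every KO DMXAA library was above every KO vehicle library, while the WT groups overlapped. The log2 difference was 0.48 in the KO (95% interval 0.13 to 0.83, adjusted p = 0.78), -0.30 in the WT and -0.78 for the interaction (adjusted p = 0.672), none of which passed the test. In dentate granule cells the values were 0.42 in the KO (adjusted p = 0.769) and -0.60 for the interaction (adjusted p = 0.642). In all nuclei Gabrd was at -0.36 in WT (adjusted p = 0.883), 0.54 in KO (adjusted p = 0.784) and -0.91 for the interaction (adjusted p = 0.225). DESeq2 called this interaction of Gabrd (-0.87, adjusted p = 0.0251), and leaving out WT DMXAA replicate 1 brought it past the edgeR test as well.

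The values of all nuclei together cannot tell fewer cells of a type from less RNA per cell. Gabra6 in all nuclei had a log2 difference of 3.76 in the KO (adjusted p = 0.784) and an interaction of -5.14 (adjusted p = 0.243), which DESeq2 called (-5.15, adjusted p = 0.0279). These values moved with the nuclei of the cluster that held 92.2% of its UMIs: without that cluster Gabra6 had too few counts to be tested, and the all-nuclei interaction of Gabrd was -0.82 (adjusted p = 0.305).

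The 2 genes of lowest p in each class are given as log2 values of DMXAA against vehicle, none of which passed the test. In ENs beside Gabrd these were Gabra2 at 0.27 in WT, Gabrg1 at -0.36 in KO and Gabra2 at 0.41 for the interaction. Dentate granule cells had Gabra2 at 0.23 and Gabbr2 at 0.33 in WT, Gad2 at -0.62 beside Gabrd in KO, and Gabra2 at 0.29 beside Gabrd for the interaction. Gabra2 was in dentate granule cells at 657, 613, 644 and 731 CPM with vehicle and 780.4, 713, 741 and 658 with DMXAA in WT mice. The highest vehicle library was above 2 of the DMXAA libraries, so the groups overlapped.

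CA1 had Gabra4 at -0.27 and Gabbr2 at 0.35 in WT, Abat at -0.35 and Gabra5 at -0.14 in KO, and Gabbr2 at 0.61 and Gabra2 at 0.30 for the interaction. In CA3 the values were Gabrg3 at 0.74 (adjusted p = 0.912) and Slc6a11 at 0.60 in WT, Abat at -0.50 and Gabrg3 at -0.46 in KO, and Gabrg3 at 1.20 (adjusted p = 0.808) and Abat at 0.92 for the interaction. Gabrg3, a gamma subunit, was in CA3 at 325, 369.9, 325 and 122 CPM in WT vehicle and 372, 465, 519.7 and 492 in WT DMXAA. All WT DMXAA libraries were above all WT vehicle libraries, of which the lowest was replicate 4.

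INs had Gabra2 at 0.30 and Nlgn2 at -0.24 in WT, Gabra5 at 0.33 and Gabrg1 at 0.52 in KO, and Gabbr2 at 0.45 and Nlgn2 at -0.34 for the interaction. In Lhx6 INs they were Gabra2 at 0.34 and Nlgn2 at -0.24 in WT, Gabra5 at 0.30 and Gabrg1 at 0.52 in KO, and Nlgn2 at -0.42 and Slc6a11 at 0.63 for the interaction. Adarb2 INs had Gabbr2 at 0.28 and Gabrd at -0.51 in WT, Gabra2 at -0.30 and Abat at -0.23 in KO, and Gabra2 at 0.52 and Gabra4 at -0.46 for the interaction. The synthesis genes Gad1 and Gad2 were not among these in INs or their subclasses.

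Astrocytes had Gabrb2 at 1.406 (adjusted p = 0.792) and Gabrg3 at 0.56 in WT, Gabra3 at -1.45 (adjusted p = 0.849) and Gabra4 at 0.38 in KO, and Gabra5 at 1.63 and Gabra3 at 1.98 for the interaction. In oligodendrocytes they were Gabra5 at 1.06 (adjusted p = 0.859) and Gabrg3 at 1.48 in WT, Slc32a1 at 0.83 and Abat at -0.28 in KO, and Gabra5 at 1.66 and Gabrg3 at 2.26 for the interaction. OPCs had Nlgn2 at 0.36 and Gabbr2 at 0.36 in WT, Gabrg1 at 0.46 and Gabrb1 at -0.25 in KO, and Gabrg1 at -0.79 and Nlgn2 at 0.54 for the interaction. Nlgn2, the adhesion molecule of inhibitory synapses, was in OPCs at 67.8, 55.1, 89.8 and 89.3 CPM with vehicle and 107, 102, 71.9 and 87.9 with DMXAA in WT mice, and the groups overlapped. Microglia had Gabbr1 at -0.33 and Gabrb1 at 1.16 in WT, Gabbr2 at -1.29 (adjusted p = 0.844) and Gabra5 at -0.87 in KO, and Gabbr2 at 1.83 and Gabrg3 at 1.86 for the interaction. In fibroblasts they were Abat at -0.42 and Gabbr1 at 0.29 in WT, Gabrg3 at -0.91 and Abat at -0.29 in KO, and Gabbr1 at 0.57 and Gabrb2 at 1.15 for the interaction. In all nuclei Gabra2 at 0.26 stood beside Gabrd in WT.

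Without WT DMXAA replicate 3 many of these values were smaller, and some turned sign. In WT mice Gabra2 was then at 0.12 in ENs, 0.12 in dentate granule cells, 0.068 in INs, 0.11 in Lhx6 INs and 0.037 in all nuclei. Gabbr2 was at -0.028 in dentate granule cells, -0.085 in CA1, 0.02 in Adarb2 INs and 0.08 in OPCs. Gabrd in ENs was at -0.17, Gabra4 in CA1 at -0.49 and Slc6a11 in CA3 at 0.30. In glia of WT mice Gabrb2 was at -0.56 in astrocytes, Gabrg3 at -0.033 in astrocytes and -0.79 in oligodendrocytes, Gabra5 at 0.15 in oligodendrocytes and Gabrb1 at -0.73 in microglia. Nlgn2 in OPCs stayed above 0, at 0.42. For the interaction Gabra2 was at 0.26 in ENs, 0.18 in dentate granule cells, 0.19 in CA1 and 0.34 in Adarb2 INs, and Gabbr2 was at 0.17 in CA1, 0.13 in INs and 0.73 in microglia. Gabra5 was at 0.71 in astrocytes and 0.75 in oligodendrocytes, Gabra3 at 0.69 in astrocytes, Gabrg3 at -0.0025 in oligodendrocytes and -0.18 in microglia, and Gabrb2 at -0.36 in fibroblasts. None of these passed the test.

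Several glial values above 0 in WT mice turned on 1 library. Gabrb2 in oligodendrocytes was at 24.7, 16.04, 28.2 and 23.2 CPM in WT vehicle and at 8.83, 7.62, 128 and 7.35 in WT DMXAA. Replicate 3 was above every vehicle library and the other 3 were below every one. Without that replicate, Gabrb2 fell by 1.44 on the log2 scale in oligodendrocytes (SE 0.30, adjusted p = 0.0154), and Gabra4 in all nuclei fell by 0.34 (SE 0.06, adjusted p = 0.0105). These were 1 of 18 and 1 of 23 genes tested, beside backgrounds of 2.73% and 1.52% of all genes without that replicate. Gabra4 in all nuclei was at 128, 131, 137 and 141 CPM with vehicle and at 109.5, 111, 135 and 109 with DMXAA in WT mice, where replicate 3 alone lay among the vehicle libraries. The difference of Gabra4 without it was -0.26 in ENs (adjusted p = 0.139) and -0.49 in CA1 (adjusted p = 0.0609). Markers of ENs were high in the oligodendrocytes (815 CPM) and microglia (754) of the same replicate. Among the other WT libraries they were at 439, 391 and 364.6 CPM in oligodendrocytes with DMXAA and 421 to 494 with vehicle, and in microglia at 212, 238 and 235 with DMXAA and 265 to 414 with vehicle, where the groups did not overlap. Malat1 in all nuclei was at 91123, 88291 and 74849 CPM in these 3 WT DMXAA libraries and 53215 to 70978 with vehicle, also without overlap. The part of these in the values with or without replicate 3 was not tested.

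Between the genotypes many of the genes differed, and so did many others. Malat1, a nuclear RNA whose level can change with the preparation of nuclei, also separated them: it was at 53215 to 70978 CPM in the WT vehicle libraries and at 12699 to 20365 in the KO vehicle libraries, without overlap. Genotype, age and any difference in preparation cannot be told apart here, and the part of these in the calls below was not tested. In ENs of KO vehicle against WT vehicle mice 12 of 20 tested genes were called, beside a background of 49.3% of all genes tested. Gabbr2, the GABA-B partner that couples to G proteins, was at 482, 464, 494 and 458 CPM in WT vehicle ENs, 429, 429.7, 795 and 480.4 in WT DMXAA, 784, 869, 729 and 764 in KO vehicle and 749, 763, 726 and 707 in KO DMXAA. Every KO library was above every WT library but WT DMXAA replicate 3, which lay among the KO. Gabbr2 was higher in KO vehicle ENs by 1.20 ± 0.23 (log2, SE, adjusted p = 0.0014). The next of the genes that were higher were Slc6a11 by 0.97 ± 0.16, Abat by 0.95 ± 0.20, Gabrg3 by 0.86 ± 0.21, Gabrb1 by 0.84 ± 0.18, Gabra5 by 0.65, Gad1 by 0.58, Gabra2 by 0.56, Gabrb2 by 0.56, Gabra4 by 0.44 and Gphn by 0.25. With TMM only Gabrd was called lower in ENs, by -0.55 ± 0.16 (adjusted p = 0.0125).

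The direction of these counts rested on the scaling. Values were scaled by TMM, which centres on the bulk of genes. Scaled by total UMIs instead, the median of all genes in ENs moved from -0.08 to -0.54, and the calls over all genes moved from 4144 higher and 4618 lower to 1515 higher and 9879 lower. The latter are 8.52% and 55.5% of all genes tested. The genes called in ENs went from 11 higher and 1 lower to 5 and 5. Higher under both scalings in ENs were Gabbr2 (0.73 by totals), Slc6a11 (0.50), Abat (0.48), Gabrg3 (0.39) and Gabrb1 (0.37), and lower under both was Gabrd (-1.02). Averaged over vehicle and DMXAA, Gabrd in ENs was at -0.16 (95% interval -0.40 to 0.09, adjusted p = 0.247) and was not called. Gphn turned from 0.25 to -0.21 and Gabra4 from 0.44 to -0.02. The same move was seen in other neurons. By total UMIs the count in INs went from 8 higher and 0 lower to 4 and 7, in Lhx6 INs from 8 and 0 to 5 and 7, and in Adarb2 INs from 5 and 0 to 1 and 5. Of all genes, 7.56% were called higher and 42.8% lower in INs by total UMIs, 7.24% higher and 39.3% lower in Lhx6 INs, and 5.91% higher and 26.7% lower in Adarb2 INs. In dentate granule cells it went from 10 and 1 to 4 and 4, in CA1 from 10 and 0 to 4 and 4, and in CA3 from 7 and 0 to 5 and 1. Beside these, the shares of all genes called by total UMIs were 10.1% higher and 51.5% lower in dentate granule cells, 9.32% higher and 53.3% lower in CA1, and 8.02% higher and 39.5% lower in CA3. The median of all genes moved from -0.07 to -0.43 in INs, from -0.08 to -0.46 in dentate granule cells and from -0.08 to -0.56 in CA1, and by less in astrocytes, from -0.03 to -0.17. The counts in glia went from 3 and 0 to 3 and 3 in astrocytes, from 1 and 2 to 0 and 2 in oligodendrocytes, from 3 and 1 to 3 and 2 in OPCs, from 2 and 0 to 1 and 0 in microglia and from 1 and 0 to 0 and 0 in fibroblasts. In glia the shares of all genes called by total UMIs were 7.91% higher and 22.7% lower in astrocytes, 7.46% higher and 24.0% lower in oligodendrocytes, 8.13% higher and 20% lower in OPCs, 7.35% higher and 13.7% lower in microglia, and 5.73% higher and 9.74% lower in fibroblasts. In all nuclei the count went from 8 and 1 to 5 and 7, beside 11.0% higher and 44.2% lower of all genes.

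**Figure D4:**
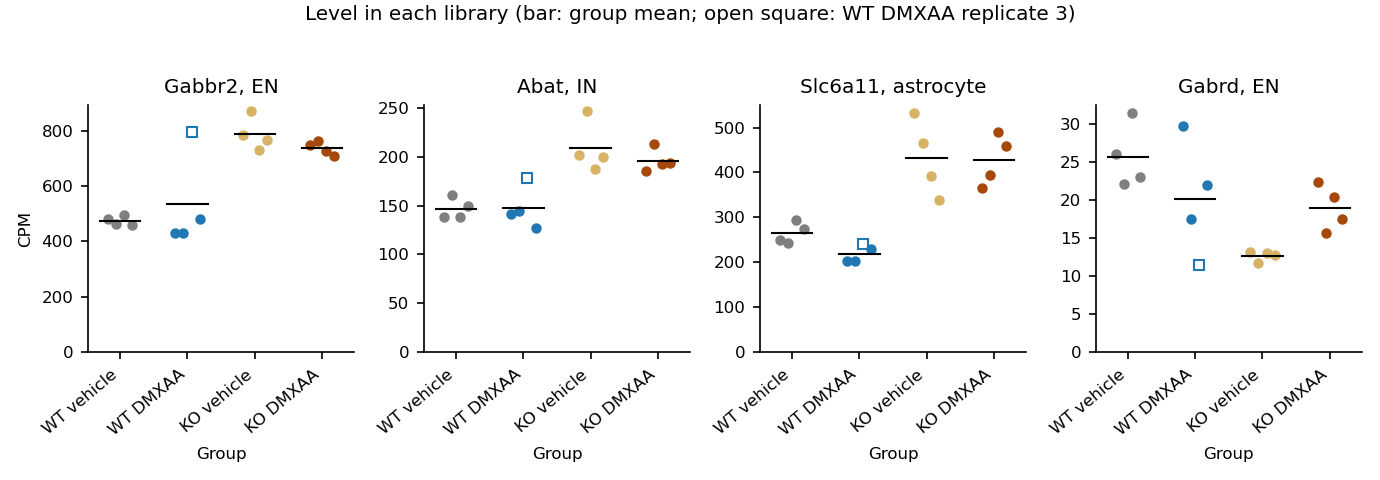
CPM in each library, by group, of Gabbr2 in ENs, Abat in INs, Slc6a11 in astrocytes and Gabrd in ENs, with the group mean as a line and WT DMXAA replicate 3 as an open square. KO points lie above WT points for Slc6a11, and for Gabbr2 all WT points but the open square lie below the KO.

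Regions are parts of ENs and subclasses are parts of INs, so the units counted here share nuclei. The share of all genes called alike over these units was not counted. Abat, the enzyme that breaks GABA down, was called higher in the KO in each of the 11 units where it was tested. Its values were 0.59 to 1.43 with TMM, and in 9 of the 11 it was called higher by total UMIs as well. In INs it was at 139, 161, 138 and 150.02 CPM in WT vehicle, 141, 145, 179 and 127 in WT DMXAA, 202, 247, 187 and 199 in KO vehicle and 185, 213, 192 and 193 in KO DMXAA. No WT library reached the lowest KO library, and WT DMXAA replicate 3 was the highest WT. The log2 difference of Abat in INs was 0.87 ± 0.16 (adjusted p = 0.0011), and 0.50 by total UMIs. Gabbr2 had values above 0 in 12 of 12 classes and regions and was called in 9, in 8 of them under both scalings. Gabrg3 was called in 9 of 12 (7 under both), Gabrb1 in 8 of 12 (5 under both) and Slc6a11 in 8 of 10 (5 under both, with a turn of sign by totals in 1 unit). Gabrd had values below 0 in 8 of 8 and was called in 3, each under both scalings, but averaged over vehicle and DMXAA only the call in oligodendrocytes held among these 3 (-0.72, adjusted p = 0.0442). That call rests on few counts, since 0.839% of oligodendrocytes held a Gabrd UMI, beside 0.942% of microglia. With vehicle alone it was ended by 12 of the 16 libraries left out in turn.

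INs had 8 of 18 genes called beside a background of 39.2% (19.1% higher and 20.2% lower), all higher with TMM: Slc6a11 by 1.01, Gabbr2 by 0.99, Abat, Gabrg3 by 0.81, Gabrb1 by 0.62, Gabra2 by 0.46, Gabrb2 by 0.45 and Gabra4 by 0.37. Of these, Gabbr2, Gabrg3, Slc6a11 and Abat were also called higher by total UMIs. Slc32a1 in INs was at 91.97, 101, 84.4 and 86.7 CPM in WT vehicle, 108, 85.9, 22.4 and 95.7 in WT DMXAA, 49.9, 36.6, 52.5 and 58.9 in KO vehicle and 68.01, 56, 80.4 and 61.1 in KO DMXAA. KO vehicle libraries were all below WT vehicle libraries in CPM, and WT DMXAA replicate 3 was the lowest of all 16. Slc32a1 was not called in INs with TMM. Lhx6 INs had 8 of 18 called (35.9%): Slc6a11 by 1.17, Gabbr2 by 1.05, Abat by 0.86, Gabrg3 by 0.76, Gabrb1 by 0.71, Gabra2 by 0.53, Gabrb2 by 0.52 and Gabra4 by 0.50. Adarb2 INs had 5 of 18 called (25.5%): Slc6a11 by 0.85, Abat by 0.75, Gabbr2 by 0.67, Gabrg3 by 0.65 and Gabrb1 by 0.48.

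In the regions of ENs, dentate granule cells had 11 of 18 called (background 49%), CA1 10 of 15 (46.9%) and CA3 7 of 13 (36.3%). Gabbr2 was higher by 1.17 in dentate granule cells, 1.28 in CA1 and 1.31 in CA3, and Abat by 0.83, 1.12 and 1.43. Gabrg3 was higher by 0.69, 0.94 and 1.48, Gabrb1 by 0.67, 0.88 and 0.78, Slc6a11 by 0.97, 0.79 and 1.07, Gabrb2 by 0.49, 0.62 and 0.75, and Gabra2 by 0.32, 0.46 and 0.40. Gabra4 was called higher in dentate granule cells (0.38) and CA1 (0.56), as was Gabra5 (0.37 and 0.58). Gad1 was called in dentate granule cells (0.32), Gphn in CA1 (0.29), and Gabrd was lower in dentate granule cells (-0.50), a call lost on averaging over vehicle and DMXAA (-0.20, adjusted p = 0.0964). By total UMIs the sign of Gabra2 turned in all 3 regions, that of Gabra4, Gabra5 and Gad1 in dentate granule cells and that of Gphn in CA1. Different clusters held the genotypes in 2 of these regions: 1 dentate granule cluster of 8583 nuclei was 3.0% KO and the next of 5788 and 4628 were 82.5% and 79.5% KO, and the CA1 clusters of 3669 and 3317 nuclei were 76.1% and 2.5% KO.

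Among glia, astrocytes had 3 of 19 genes called beside a background of 29.9%, and all 3 were higher under both scalings. Slc6a11, the astrocyte GABA transporter, was at 249.6, 242, 295 and 274 CPM in WT vehicle, 204, 202, 242 and 229.6 in WT DMXAA, 533, 466, 393 and 339 in KO vehicle and 364.9, 395, 489 and 459 in KO DMXAA. No WT library reached the lowest KO library, WT DMXAA replicate 3 included. Slc6a11 was higher by 0.85 ± 0.14 (adjusted p = 0.0015), Abat by 0.75 ± 0.17 and Gabrg3 by 1.09 ± 0.28. Gabrg3 in astrocytes was at 102, 114, 124 and 106 CPM in WT vehicle, 97.3, 111, 286 and 105 in WT DMXAA, 199, 244, 218 and 204 in KO vehicle and 162, 201, 188 and 197 in KO DMXAA, where WT DMXAA replicate 3 was above all 15 other libraries.

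OPCs had 4 of 14 called (25.5%): Gabbr2 higher by 1.05, Abat by 0.81 and Gabrg3 by 0.73, and Gabrg1 lower by -0.79, each under both scalings. Averaged over vehicle and DMXAA, Gabrg1 in OPCs was at -0.39 and not called (adjusted p = 0.0694). Oligodendrocytes had 3 of 18 called (29.5%). Slc32a1 was lower by -1.53 and Gabrd by -1.10 under both scalings, at levels far below those of INs, and Abat was higher by 0.61 with TMM alone. Oligodendrocytes lay in 2 clusters, of 9779 nuclei with 78.3% KO and 8584 nuclei with 4.3% KO. Microglia had 2 of 10 called (19.5%), Gabbr2 by 2.17 ± 0.53 and Gabrb1 by 2.08 ± 0.71. Gabbr2 in microglia was at 40.5, 27.4, 36.1 and 36.9 CPM in WT vehicle and 128, 194, 70.8 and 178 in KO vehicle, without overlap, while markers of ENs in microglia were at 265 to 414 and 296 to 656 CPM in the same libraries, and their part in it was not tested. Fibroblasts had 1 of 12 called (15.8%), Abat by 0.59. Some calls in glia were lost when a single library was left out. Gabbr2 in microglia was not called without KO vehicle replicate 2 (1.98). Slc32a1 in oligodendrocytes lost its call without KO vehicle replicate 1 or 3 or WT vehicle replicate 1 (-1.44 to -1.36), Abat in OPCs without KO vehicle replicate 2 or WT vehicle replicate 2 or 3 (0.57 to 0.79), and Gabrg1 in OPCs without KO vehicle replicate 1 or 2 or WT vehicle replicate 2 or 3 (-0.76 to -0.65). Of the 16 libraries left out in turn, 12 ended the call of Gabrb1 in microglia (1.88 to 2.28), 12 that of Gabrd in oligodendrocytes (-1.21 to -0.79), 6 that of Abat in oligodendrocytes (0.52 to 0.63) and 7 that of Abat in fibroblasts (0.50 to 0.59).

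In all nuclei 9 of 23 were called (48.8%): Slc6a11 higher by 1.33, Gabre by 1.21, Abat by 1.02, Gabbr2 by 0.95, Gabrb1 by 0.73, Gabrg3 by 0.71, Gabra5 by 0.41 and Gabra2 by 0.40, and Gabrd lower by -0.77. By total UMIs Slc6a11, Abat, Gabbr2, Gabrb1 and Gabrg3 stayed higher and Gabrd stayed lower. Calls in neurons and in all nuclei were also lost with a single library left out. Gabrb1 in Adarb2 INs (0.44) and Gabrb2 in Lhx6 INs (0.43) were not called without WT vehicle replicate 3, Gabrg3 in dentate granule cells without KO vehicle replicate 2 (0.55), Gad1 in dentate granule cells without WT vehicle replicate 2 (0.26), and Slc6a11 in Adarb2 INs without KO vehicle replicate 1 or WT vehicle replicate 1 (0.72 to 0.73). Of the 16 libraries, 14 ended the call of Gphn in ENs, 5 that of Gphn in CA1, 6 that of Gabra4 in INs, 10 that of Gabra5 and 4 that of Gabre in all nuclei. The call of Gabra2 was ended by 8 libraries in INs, 5 in Lhx6 INs, 4 in dentate granule cells, 7 in CA3 and 13 in all nuclei. All of these values kept their sign.

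Averaging the genotypes over vehicle and DMXAA both ended and brought calls. The number called went from 3 to 9 in astrocytes (background 39.9%), 7 to 10 in CA3 (45.7%) and 9 to 12 in all nuclei (57.9%). It went from 10 to 11 in CA1 (56.9%), 8 to 9 in Lhx6 INs (45.1%), 5 to 6 in Adarb2 INs (35.1%) and 3 to 4 in oligodendrocytes (41.8%). It fell from 11 to 10 in dentate granule cells (57.3%) and 4 to 3 in OPCs (35.3%). The number stayed at 8 in INs (48.5%). Lower were then 3 of 19 genes in astrocytes, 1 of 18 in INs and 1 of 18 in Lhx6 INs, against 0 in each with vehicle. Beside these, 23.1% of all genes were called lower in astrocytes, 25.9% in INs and 24.0% in Lhx6 INs. Gabra2 was not called in INs (0.27, adjusted p = 0.0723), Lhx6 INs (0.32, adjusted p = 0.0519), dentate granule cells (0.17, adjusted p = 0.0572) or all nuclei (0.22, adjusted p = 0.105). Gabra5 in all nuclei (0.27, adjusted p = 0.0542) and Gabrb1 in microglia (1.27, adjusted p = 0.057) were not called either. Calls that held with a value over 1.5 times smaller were Gabbr2 in microglia (1.26), Gabrg3 in CA3 (0.88) and astrocytes (0.70), Gabra2 in ENs (0.35), and Gabrd in oligodendrocytes and in all nuclei (-0.32).

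The difference between genotypes moved with gene length across all genes. In ENs the median log2 difference of KO against WT with TMM was -0.48 for genes under 20 kb, 0.02 from 20 to 50 kb, 0.28 from 50 to 100 kb, 0.52 from 100 to 200 kb and 0.76 from 200 kb. Of genes under 20 kb 4.29% were called higher and 43.0% lower, and of genes from 200 kb 77.8% were called higher and 1.32% lower. Slc32a1, Gabrd and Nlgn2 are under 20 kb, and Gphn, Gabra3, Gabrb1, Gabrb2, Gabrg3 and Gabbr2 are over 200 kb. Set beside genes of like length, Gabbr2 in ENs was above 87.1% of them, Slc6a11 above 84.2%, Abat above 83.7% and Gad1 above 89.0%, whereas Gphn was above 13.9%, Gabra3 above 7.38% and Gabrd above 45.6%. These are places in a range and not tests. Of the 6795 Gad1 UMIs of ENs, 6280 lay in dentate granule cells, where Gad1 was above 78.6% of genes of like length. Dentate granule cells made up 27.5% to 49.8% of ENs in WT vehicle libraries and 40.6% to 48.5% in KO vehicle libraries. Upper-layer cortex-like cells, a further part of ENs (2459 nuclei), made up 0.0567% to 17.3% of them in WT vehicle libraries. In KO vehicle libraries they made up 1.28% to 3.55%. The part of this mix of regions in the values of ENs was not tested. Whether length has a part in the values was not tested.

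**Figure D5:**
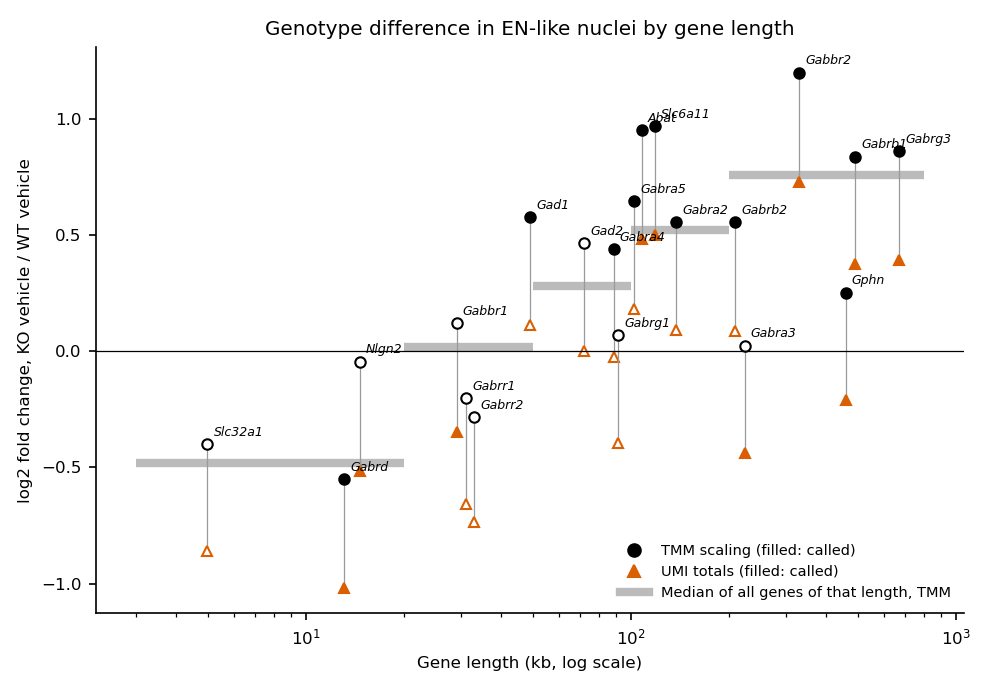
Log2 difference of KO vehicle against WT vehicle in ENs (y axis) against gene length in kb (log x axis) for each gene tested, scaled by TMM (circles) and by total UMIs (triangles), filled where called, with grey bars for the median of all genes in each length class. The bars climb with length from -0.48 to 0.76 with TMM, and Gabbr2, Slc6a11 and Abat lie above theirs.

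WT DMXAA replicate 3, no member of either vehicle group, lay in the range of the KO for several genes and outside both ranges for others. In ENs 5 of the genes had no overlap between the other 7 WT libraries and the 8 KO libraries. This replicate was in the KO range for 3 of the 5 and between the ranges for 2 (Nlgn2 and Slc6a11). In dentate granule cells it was in the KO range for 4 of 4 and in CA1 for 3 of 3. In astrocytes 5 genes had no overlap. The replicate was in the KO range for Abat, in the WT range for Slc6a11, below both for Gabrg1 and Slc32a1 and above both for Gabrg3. In INs 6 genes had no overlap, and it was in the KO range for 3 and outside both for 3, and in microglia it was outside both ranges for 2 of 2. For all genes such counts without overlap were not made, so the counts given here have no background to be read against. Nothing in the labels sets this library apart. Its Ifnar1, at 13.6 CPM, lay between the KO libraries (10.9 to 12.6) and the other WT libraries (16.9 to 19.2). Whether this library was mislabelled or prepared in another way is not known. Values that rest on the WT DMXAA group are to be read with that doubt. With this library left out of the fit, the number of genes called between the genotypes went from 3 to 8 in astrocytes (background 43.5% without it), from 3 to 11 in oligodendrocytes (46.2%), from 2 to 7 in microglia (34.2%) and from 1 to 4 in fibroblasts (23.5%). In Adarb2 INs the count went from 5 to 8 (33.1%) and in all nuclei from 9 to 14 (59.6%). ENs had 12 of 20 with and without it, beside 49.3% of all genes with it. With 1 library left out at a time, that share of all genes in ENs ran from 37.1% to 58.8%.

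Other genes of the inhibitory synapse, 25 chosen for function and not among the 26, were set beside them. None was called for DMXAA in WT, in KO or for the interaction, over 284 tests each by edgeR. Between the genotypes 11 of 25 were called higher and 4 lower in ENs, led by Kcnj6 (a potassium channel that GABA-B receptors open) at 0.99, Plcl1 at 1.21, Lhfpl4 (a partner of GABA-A receptors) at 0.58, Gabarap (a GABA-A receptor binding protein) at -0.83 and Kctd16 (an auxiliary GABA-B subunit) at 0.60. INs had 8 of 23 higher and 4 lower, led by Insyn2a at 1.52, Kcnj6 at 0.74, Kctd8 (an auxiliary GABA-B subunit) at 0.71, Iqsec3 at 0.74 and Plcl1 at 1.03. Astrocytes had 2 of 23 higher, Plcl1 at 0.91 and Lhfpl4 at 0.68, and 1 lower, Gabarap at -1.32. These counts with TMM are to be read against the same backgrounds of 49.3%, 39.2% and 29.9%.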

How the data were processed

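The files deposited by the authors hold raw counts of UMIs per gene and nucleus. Per the labels they were made with Cell Ranger 3.1.0 on mm10, while the file headers name Cell Ranger 6.1.2, with reads of unspliced RNA included per the study's methods. The labels name Seurat 3.0 for the study's own analysis, and its methods name another release. The 26 genes, the 25 other genes and the markers were chosen with earlier results of these data known.

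From 155084 barcodes, nuclei with 200 to 4000 genes and at most 5% mitochondrial UMIs were kept (22027 had over 4000 genes) and 11508 scored as doublets were removed, which left 112521. They were clustered on 2000 variable genes and 30 components (leidenalg 0.10.2, resolution 0.5, Python 3.11.15) without the 26 genes, interferon genes and mitochondrial genes. Clusters were named from at least 3 detected markers, with thresholds set after the clusters were seen. The clusters named fibroblast-like were added as a unit after seeing the data, because Slc6a13 was nearly confined to them.

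Counts were summed per library and class (at least 20 nuclei) and fitted over the 4 groups with edgeR 4.0.16 (quasi-likelihood, TMM, filterByExpr, Benjamini-Hochberg adjusted p) in R 4.3.3. All 16 libraries entered every fit. The named genes are all members called, the 2 of lowest p where none was called, the members under the filter, and up to 5 of the 25 other genes per contrast. Alternatives were DESeq2 1.42.0, RLE, total UMIs (added after seeing the data), no filter, other nuclei, another resolution and each library left out. Below the filter stayed Gabra6, Gabre, Gabrp, Gabrq, Gabrr3 and Slc6a13 in ENs, and these with Gabrr1 in the other classes, except Slc6a13 in fibroblasts. Gabrr2 passed it only in ENs, astrocytes, oligodendrocytes and all nuclei. Gad2 and Slc32a1 were also below it in OPCs, microglia, fibroblasts, CA1 and CA3, and Gad1 in these but OPCs. Gabrg1 was below it in oligodendrocytes, microglia, fibroblasts and CA3, and Gabrd in OPCs, microglia, fibroblasts and CA3. Gabra5 was below it in OPCs and fibroblasts, Slc6a11 in microglia and fibroblasts, and Gabra3 and Abat in microglia. In all nuclei only Gabrp, Gabrq and Gabrr3 were. The fits were tested on simulated data. Libraries held 33543386 to 52637708 UMIs in kept nuclei, and a level of a few CPM in a small class rests on few UMIs. Free RNA was not modelled, and sorting by DAPI selects nuclei of every type.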

Additional observations from a re-analysis of the deposited data

Results flagged for a closer look

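In 84 groups of 4 libraries (a member in a class), 4 had a library far from the other 3, where chance gives about 1 in 20 groups. Of these, 3 were WT DMXAA replicate 3. In INs Gabrb2 was at 604 CPM in it and at 529 to 536 in the other WT DMXAA libraries. Gabrr1 in ENs was at 0.0534 CPM in it and at 0.435 to 0.504 in the others. Gabbr2 in ENs was at 795 CPM in it and at 429 to 480.4 in the others. The remaining one was Gad2 in INs, at 312 CPM in KO vehicle replicate 4 and 295 to 298 in the other KO vehicle libraries.

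Other signals lay in nuclei outside the compared classes. Of the Gabra6 UMIs 92.2% were in 1 unnamed cluster of 644 nuclei, and this cluster was spread over all 16 libraries. Another unnamed cluster, of 148 nuclei and led by Gh, Prl and Dlk1, held 8.76% of the Gabre UMIs and 8.05% of the Gabrr3 UMIs.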

How the results depend on the processing

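No paired analysis was possible because the replicate numbers follow the order of the accessions and pair no mice. Of the counts of members called and the levels by class, 1650 values under alternatives stayed within the range set for them and 63 moved. Of single genes 3516 kept their direction and side of the threshold, 185 kept direction but lost the call, 5 gained it and 22 reversed. Where a value moved, the cause was not tested.

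For DMXAA, the count of members called was 0 and became 1 with no filter on low counts in CA3 of WT mice (Gabrg3), in the CA3 interaction, and in fibroblasts of KO mice and their interaction (Gabrb1), where 0.511%, 0.416%, 0.416% and 0.767% of all genes were called. It became 2 with DESeq2 for the interaction in all nuclei, beside 0.703% of all genes. Shares of all genes called under the same alternative are given in brackets below. For the genotypes, the count in astrocytes was 3 and became 6 by total UMIs (30.6%) and 9 averaged over vehicle and DMXAA (39.9%). In microglia it was 2 and became 5 with doublets kept (26.3%), 0 at resolution 1.0 (14.5%), 1 with RLE (19.4%), 1 by total UMIs (21.0%), 4 without the filter (8.24%) and 4 with DESeq2 (19.97%). In fibroblasts it was 1 and became 0 by total UMIs (15.5%), 3 without the filter (8.93%) and 0 with DESeq2 (14.2%). With nuclei over 4000 genes kept, CA3 had 11 in place of 7 (45.1%) and Adarb2 INs 9 in place of 5 (29.0%). Leaving out 1 library at a time, the DMXAA count ran from 0 to 1 for WT oligodendrocytes (2.73% where it was 1), WT all nuclei (1.52%) and the interaction in all nuclei (0.0932%). The genotype count ran from 3 to 8 in astrocytes (17.7% to 43.5%), 0 to 11 in oligodendrocytes (17.8% to 46.2%), 2 to 5 in OPCs (14.9% to 34.0%), 0 to 7 in microglia (6.45% to 34.2%), 0 to 4 in fibroblasts (7.31% to 23.5%), 4 to 8 in Adarb2 INs (15.1% to 33.1%) and 6 to 14 in all nuclei (36.5% to 59.6%). The highest counts, other than in OPCs, were those without WT DMXAA replicate 3, except for the interaction in all nuclei, where it was WT DMXAA replicate 1.

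Levels moved at resolution 1.0 in INs, for Gabrb2 to 428 CPM, Gabrg3 to 1904, Gabrq to 0.369, Gad1 to 214 and Gad2 to 235, and Gabra4 in ENs to 145 CPM with nuclei over 4000 genes kept. Without Malat1 and mitochondrial UMIs in the total, Gabrb1 in astrocytes was at 4942 CPM and Gphn at 1677.

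Without WT DMXAA replicate 3 the sign of the DMXAA difference reversed, and this value was the lowest over the libraries left out in turn. In WT, Gabrb2 in astrocytes ran from -0.56 to 1.75, Gabrg3 from -0.033 to 0.74 in astrocytes and from -0.79 to 1.83 in oligodendrocytes, Gabrb1 in microglia from -0.73 to 1.49, and Gabbr2 from -0.028 to 0.47 in dentate granule cells and from -0.085 to 0.49 in CA1. For the interaction, Gabrg3 ran from -0.0025 to 2.61 in oligodendrocytes and from -0.18 to 2.22 in microglia, and Gabrb2 from -0.36 to 1.43 in fibroblasts. Gabra5 in KO turned to -0.040 in INs at resolution 1.0, and to -0.082 in INs and -0.23 in Lhx6 INs with nuclei over 4000 genes kept. Abat in KO Adarb2 INs ran from -0.38 to 0.011, the latter without KO vehicle replicate 2. By total UMIs the genotype difference turned for Gabra4 (-0.025) and Gphn (-0.21) in ENs, for Gabra4 (-0.0060), Gabra5 (-0.013), Gad1 (-0.063) and Gabra2 (-0.065) in dentate granule cells, for Gabra2 (-0.013) and Gphn (-0.18) in CA1 and for Gabra2 in CA3 (-0.011). Fewer intervals of the DMXAA differences in WT mice lay within 1 of 0 in astrocytes, oligodendrocytes and microglia than in ENs and INs.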
